A study of Mus musculus with 2 samples.

Results

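AMPA receptors are the glutamate-gated ion channels that carry most fast excitatory transmission, and TARPs (transmembrane AMPA receptor regulatory proteins) are the auxiliary proteins that bring them to the cell surface and shape their gating. The 4 subunit genes Gria1, Gria2, Gria3 and Gria4 and the 6 TARP genes Cacng2, Cacng3, Cacng4, Cacng5, Cacng7 and Cacng8 were found by their platform symbols, and all 10 had a value among the 19503 genes named on the arrays. RNA came from pooled cerebella of Tg(Pcp2-L10a-Egfp) mice at postnatal day 7. The transgene puts L10a, a ribosomal protein, in fusion with green fluorescent protein under the Pcp2 promoter, which is active in Purkinje cells. In the TRAP sample (translating ribosome affinity purification) tagged ribosomes were captured on antibody beads with their mRNA; the unbound sample is RNA that beads left behind. Whether both samples came from the same pool of cerebella was not stated. Both samples carry the transgene and neither received a treatment; neither the sex nor the number of pooled animals was given in the sources used here. Each sample was measured on 1 Affymetrix array, so there is no replicate, no test and no p-value, and every difference below is one between 2 arrays.

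A functional AMPA receptor is a tetramer of the subunits GluA1 to GluA4. Receptors that contain GluA2, whose transcript is edited in the pore-lining segment, pass little calcium. Purkinje cells are known for receptors rich in GluA2 and GluA3 at their parallel and climbing fibre synapses, whereas Bergmann glia, the astrocytes around Purkinje dendrites, carry calcium-permeable receptors of GluA1 and GluA4. Type I TARPs (Cacng2, Cacng3, Cacng4 and Cacng8) and type II TARPs (Cacng5 and Cacng7) differ in sequence and in how they change gating. Cacng2, which encodes stargazin, is the gene disrupted in the ataxic stargazer mouse, whose cerebellar granule cells lack surface AMPA receptors.

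Of the 10 genes, 9 read lower on the TRAP array than on the unbound array, and Cacng2 was the exception. Differences are log2 values of the deposited table, TRAP minus unbound throughout. To count as above the floor, a gene had to read more than 7.079, the median over the probe sets of the 2 arrays, on 1 array or both. All 10 genes passed it, 9 of them on both arrays and Gria4 on the unbound array alone. The median difference of the 10 genes was -0.67, against -0.13 over the 10524 genes above the floor. At least 2-fold higher in unbound were Gria4, Cacng3 and Gria2, or 3 of 10, where 18.6% of all genes above the floor lay. None of the 10 was at least 2-fold higher in TRAP, where 8.11% of all genes lay. With so few members 1 gene is 10% of the set, so neither share is far from the background. A lower value of any size in TRAP was seen for 9 of 10 members and for 55.8% of all genes, and Cacng2 shared its direction with the other 44.1%. At 1.5-fold, 5 of 10 members were higher in unbound (30.9% of all genes) and 0 in TRAP (18.8%); at 4-fold these counts were 1 (4.34%) and 0 (0.741%).

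**Figure D1:**
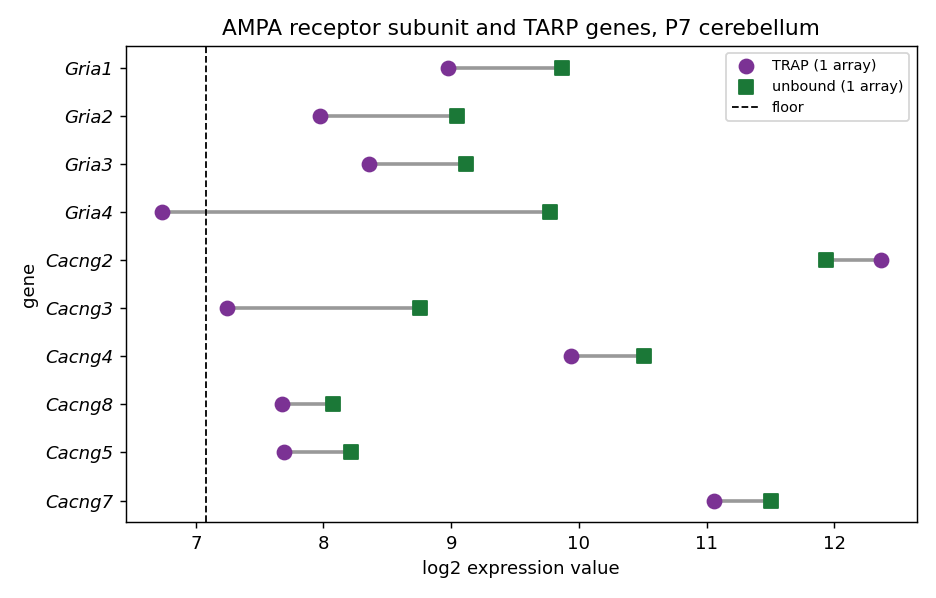
The log2 expression value of each gene on the TRAP array (circles) and on the unbound array (squares), with the floor of 7.079 as a dashed line. Cacng2 is the one gene whose TRAP value, 12.36, lies above its unbound value, 11.93, and Gria4 is the one whose TRAP value lies below the floor. Horizontal positions of different genes come from different probes and are not to be ranked against each other.

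All 4 pore-forming subunit genes were lower in TRAP. Gria1, which encodes GluA1, read 8.98 in TRAP and 9.87 in unbound, a difference of -0.89. Gria2, whose product sets the calcium permeability of the receptor, read 7.98 and 9.05, a difference of -1.07 that is 2.10-fold. Gria3, the usual partner of Gria2 in Purkinje cells, read 8.35 and 9.12, which is -0.77. These 3 genes therefore lay within 0.30 of each other. Gria4 stood apart: it read 6.73 in TRAP and 9.77 in unbound, a difference of -3.04 or 8.22-fold. Only 31 of the 10524 genes above the floor had a lower difference. Its TRAP value was 0.35 below the floor, and the table gives no detection call, so the fold is uncertain while the unbound value was 2.69 above the floor.

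Of the 6 TARP genes, 5 were lower in TRAP and 1, Cacng2, was higher. Cacng2 read 12.36 in TRAP and 11.93 in unbound, a difference of 0.43 or 1.35-fold. It was the one member with more than 1 probe set, and these gave 0.32 (12.06 against 11.74) and 0.54 (12.67 against 12.13), both higher in TRAP. A larger difference was found for 2633 genes, so Cacng2 was not unusual among all genes. Cacng3, a type I TARP known chiefly from the forebrain, read 7.24 and 8.76, a difference of -1.52 or 2.86-fold lower in TRAP, with its TRAP value 0.16 above the floor. Cacng4, a type I TARP of the developing brain and of glia, read 9.94 and 10.51, which is -0.57. Cacng8, the type I TARP best known from the hippocampus, read 7.67 and 8.08, which is -0.40.

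Both type II genes lay above the median of the members, -0.67. Cacng5, known from Bergmann glia, read 7.69 in TRAP and 8.21 in unbound, a difference of -0.53. Cacng7, a TARP widely expressed in cerebellar neurons, read 11.06 and 11.50, a difference of -0.45. Cacng4, Cacng5, Cacng7 and Cacng8 thus fell between -0.57 and -0.40, each under 1.5-fold.

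**Figure D2:**
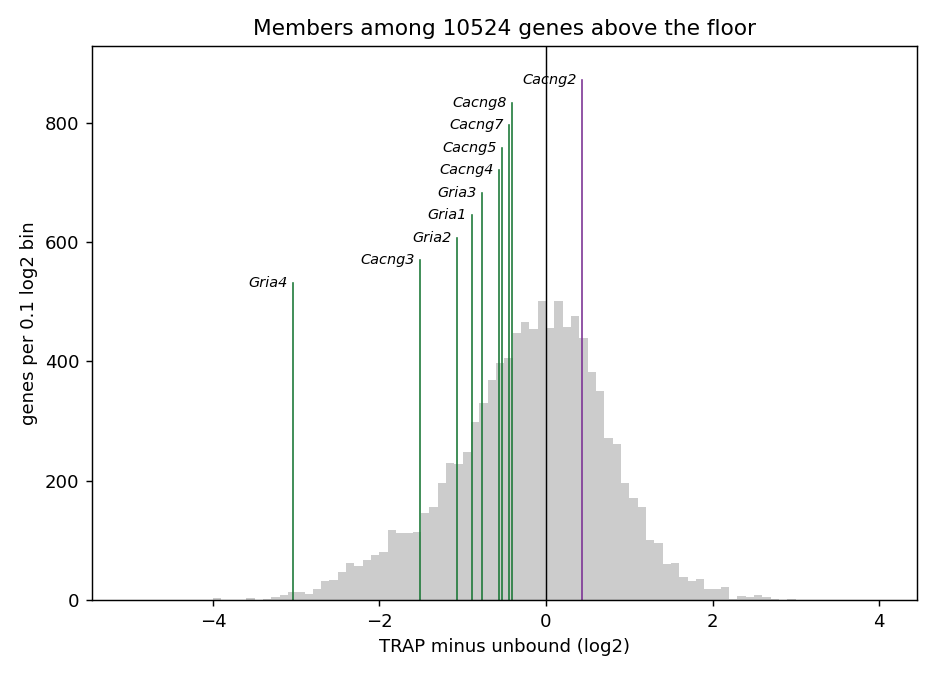
The distribution of the TRAP minus unbound difference over the 10524 genes above the floor, in bins of 0.1 on the log2 scale (grey bars), with a line for each AMPA receptor subunit and TARP gene. Line heights only separate the names. Gria4 at -3.04 lies in the far lower tail, 8 genes lie between -1.52 and -0.40, and Cacng2 lies at 0.43.

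Ordered from the lowest difference to the highest, the genes ran Gria4, Cacng3, Gria2, Gria1, Gria3, Cacng4, Cacng5, Cacng7, Cacng8 and Cacng2. In the absence of replicates, the spread between probe sets of one gene gives a partial yardstick. Over 404 genes with 2 probe sets above the floor, the differences of the pair lay a median of 0.18 apart, and the 90th percentile of that gap was 0.70. In 45 of these genes the 2 probe sets had opposite signs. This spread covers probes on the same arrays, not a repeat of the purification. The step from Gria4 to Cacng3, 1.52, and that from Cacng8 to Cacng2, 0.83, exceeded 0.70. None of the 7 other steps did, the largest of them being 0.45 from Cacng3 to Gria2. The order of neighbours in that stretch is therefore not resolved. Between its ends, Cacng3 against Cacng8, the difference was -1.115, beyond 0.70 in size. The TRAP value of Cacng3 lies near the floor, however, and Gria2 against Cacng8, at -0.665, stayed within 0.70.

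The relative positions of 2 genes do not depend on where an array is centred. Against Gria2, Gria4 was 3.92-fold lower in TRAP relative to unbound, and this ratio was 3.83-fold to 4.09-fold under the 3 other scalings of the arrays (array medians subtracted, quantile normalization, a loess trend removed). That range shows the effect of scaling only: with the TRAP value of Gria4 below the floor, the size of the ratio is uncertain. Against Cacng3, Cacng2 was 3.86-fold higher, and the other scalings gave 2.94-fold to 3.86-fold. The TRAP value of Cacng3 was only 0.16 above the floor, so the size of this ratio is uncertain too. Subtracting array medians shifts every gene alike, so it cannot change an order or a ratio between genes. Of the 45 pairs of members, 44 also kept their order under quantile normalization and with the loess trend removed. The exception was Cacng5 with Cacng7. A kept order is not a resolved one: Gria3 and Cacng4 were 0.006 apart after quantile normalization. The step from Cacng8 to Cacng2 was 0.39 after quantile normalization and 0.48 after the loess trend was removed, both under 0.70.

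Each member kept its sign under all 4 scalings. The 2-fold threshold was held throughout by Gria4 (-3.04 to -2.71) and Cacng3 (-1.52 to -1.19). Gria2 fell short of it in the other 3 scalings, with -0.74, -0.81 and -0.92. Cacng8 came nearest to 0, at -0.04 after quantile normalization and -0.07 with the array medians subtracted. With the array medians subtracted, after quantile normalization and with the loess trend removed, 2 of 10 members were past 2-fold in unbound, where 11.6%, 13.7% and 16.3% of all genes lay, and 0 in TRAP, where 16.4%, 12.0% and 9.55% lay. A lower value in TRAP of any size was found for 9 of 10 members each time, and for 39.3%, 46.3% and 52.1% of all genes.

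**Figure D3:**
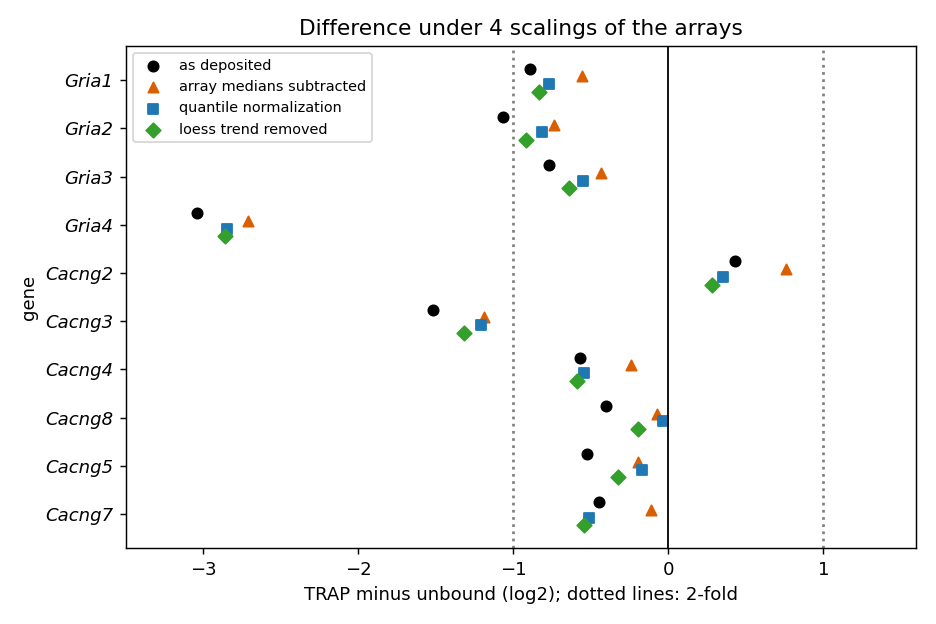
The TRAP minus unbound difference of each gene (log2) as deposited and under 3 other scalings of the arrays, with dotted lines at 2-fold. Gria4 and Cacng3 stay beyond 2-fold in unbound in all 4, Gria2 does so only as deposited, and Cacng2 stays to the right of 0, from 0.28 to 0.76.

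The nearest protein-coding genes by difference, a likeness over only 2 arrays, were St18, Cbln3 and Enpp6 for Gria4 (-3.05 to -3.04). The TRAP values of Gria4 and Enpp6 lay below the floor, so how closely these differences match means little. Cbln3 is a marker of granule neurons and Enpp6 one of newly forming oligodendrocytes. For Cacng2 they were Stk16, Aqp2 and Sf3b6, each at 0.43.

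The promoter windows of the members at opposite ends, Cacng2 and Gria4, are shown because these genes mark the ends of the range. RefSeq windows (assembly GRCm38.p6, from 250 bases before to 50 after the start) matched 7 of the 10 genes by symbol. Both strands were searched for 4 motifs: AGGTCA, the core site bound by nuclear receptors such as RORA, a factor that Purkinje cells need to mature; CAGCTG, an E-box of basic helix-loop-helix factors; the GC box GGGCGG; and the TATA box TATAAA. Capitals mark a match, and sequences read 5′ to 3′ on the gene's strand. The Cacng2 window lies at chr15:78119231-78119530 and the Gria4 window at chr9:4796185-4796484, both on the minus strand.
Cacng2: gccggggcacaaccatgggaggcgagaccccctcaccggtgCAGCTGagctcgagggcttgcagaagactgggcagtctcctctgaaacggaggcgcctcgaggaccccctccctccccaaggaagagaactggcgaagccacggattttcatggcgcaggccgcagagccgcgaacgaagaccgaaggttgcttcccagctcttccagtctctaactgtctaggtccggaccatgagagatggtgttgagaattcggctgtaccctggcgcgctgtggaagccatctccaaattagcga
Gria4: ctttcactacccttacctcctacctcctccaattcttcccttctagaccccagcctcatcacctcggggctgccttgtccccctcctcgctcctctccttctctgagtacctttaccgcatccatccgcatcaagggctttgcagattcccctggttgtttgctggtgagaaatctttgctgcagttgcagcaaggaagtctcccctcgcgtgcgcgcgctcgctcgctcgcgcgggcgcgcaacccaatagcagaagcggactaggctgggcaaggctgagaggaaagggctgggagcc
The Cacng2 window held 1 match, to CAGCTG, and no match to the other 3 motifs. The Gria4 window held none of the 4. CAGCTG also occurred in the windows of Cacng3 and Cacng8, members that were lower in TRAP. Of all 32851 windows, 16.3% held AGGTCA, 16.3% CAGCTG, 35.7% GGGCGG and 13.6% TATAAA, so the CAGCTG match is common. Both windows were rich in G and C, at 61.0% for Cacng2 and 59.7% for Gria4, with 20 and 17 CpG dinucleotides against medians of 52.7% and 7 over all windows. These are descriptions of letters; no binding was measured.

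Cell type markers were read on the same arrays. Pcp2 was 2.52-fold higher in TRAP (12.98 against 11.65), and Rpl10a, which encodes the tagged protein, read 12.67 and 12.13. Each of the 12 Purkinje cell markers with a value was higher in TRAP, against 44.1% of all genes above the floor. The median of these markers was 1.19, and 7 of the 12 reached 2-fold, against 8.11% of all genes. Gng13, Slc1a6 and Skor2 led at 3.17, 2.51 and 2.36. Cacng2, at 0.43, lay just below the lowest Purkinje cell marker, Pcp4 at 0.49. The 2 probe sets of Cacng2, at 0.32 and 0.54, lay on either side of that value, so the 2 genes are not told apart. The highest of the other members, Cacng8 at -0.40, lay below all Purkinje cell markers.

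Most markers of the other cerebellar cells were, like most members, lower in TRAP than in unbound. Of all genes above the floor, 18.6% were past 2-fold in unbound. Among 12 markers of astrocytes and Bergmann glia 10 were past 2-fold in unbound and the median was -2.20. Gfap, Aqp4 and Ptprz1 led at -3.92, -3.53 and -3.28, and Hopx, at 0.93, was the one marker higher in TRAP. Their summed signal on the linear scale was 9014 in TRAP and 24003 in unbound. Bright genes weigh most in such a sum, here Fabp7, which read 12.27 in TRAP and 13.25 in unbound and was not past 2-fold. Of these 12 markers, 4 passed the floor through the unbound array alone, Aqp4 and Ptprz1 among them, so their folds are uncertain. For granule neurons, 8 of 9 markers were above the floor and all 8 were past 2-fold in unbound (median -1.99, summed signal 11037 and 33062); Cbln3, Gabra6 and Etv1 led at -3.05, -2.78 and -2.69, and Grin2c was below the floor on both arrays. Of 9 oligodendrocyte lineage markers with a value, 8 passed the floor, all past 2-fold in unbound (median -2.05, summed signal 2015 and 7462), led by Enpp6, Sox10 and Mbp at -3.05, -2.21 and -2.19; Cspg4 was below the floor on both arrays. Of those 8, 4 read below the floor in TRAP, Enpp6 and Sox10 among them: they passed only through the array where they were high, so their count past 2-fold describes the filter as well as the data.

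Inhibitory interneuron markers had a median of -1.67, where 4 of the 5 above the floor were past 2-fold in unbound, and a summed signal of 864 in TRAP and 3609 in unbound over 6 markers. Tfap2b, Kit and Slc6a5 led at -3.22, -2.68 and -1.67, and Sorcs3 was below the floor on both arrays. Here 3 of the 5, Kit and Slc6a5 among them, likewise passed through the unbound array alone. Granule neuron progenitor markers had a median of -0.82, with 2 of 6 at least 2-fold higher in unbound, against 18.6% of all genes. Their summed signal was 4259 in TRAP and 6371 in unbound. Ccnd1, Atoh1 and Barhl1 led at -2.35, -1.99 and -0.91. Mycn and Sfrp1 differed little, at -0.033 and -0.006, and were positive with the array medians subtracted (0.30 and 0.32). Among the members, Gria4 alone lay as low as the medians of the astrocyte and Bergmann glia, granule neuron and oligodendrocyte lineage lists. Gria1, Gria2 and Cacng3 also lay below the median of the granule neuron progenitor markers, -0.82. These cell types' part in the members' values was not tested, and in bulk RNA the number of cells that contributed a transcript and the RNA per cell cannot be told apart.

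**Figure D4:**
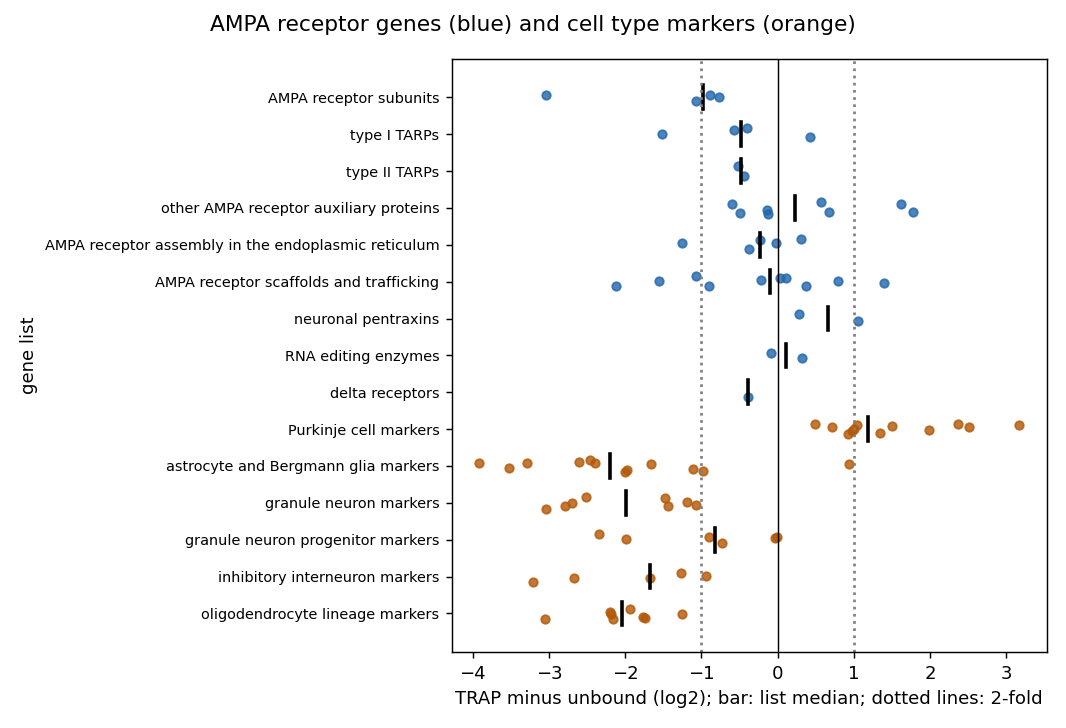
The TRAP minus unbound difference (log2) of every gene above the floor in the AMPA receptor lists (blue) and the cell type marker lists (orange), with a bar at each list's median and dotted lines at 2-fold. Of the 4 subunit genes, 3 lie between -1.07 and -0.77, to the left of all Purkinje cell markers, and Gria4 lies at -3.04 among the lowest glial and granule neuron markers.

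Other genes of the receptor's life cycle lay on both sides of 0. Of 34 further pathway genes, 29 had a value and 28 were above the floor. Of the 28, 4 were past 2-fold in TRAP and another 4 in unbound, and the median was -0.05. The shares over all genes, given above, were 8.11% and 18.6%.

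Auxiliary proteins outside the TARP family included the 2 highest differences of all the pathway genes. Of 8 such genes above the floor, 2 were past 2-fold in TRAP (8.11% of all genes) and 0 in unbound (18.6%), and the median was 0.22. Syndig1, which encodes a synapse-inducing transmembrane protein bound to AMPA receptors, read 11.74 in TRAP and 9.97 in unbound, a difference of 1.77 or 3.41-fold. Shisa6, whose product holds AMPA receptors at the synapse and slows their desensitisation, read 11.60 and 9.99, a difference of 1.61 or 3.06-fold. Both stayed at least 2-fold higher under the 3 other scalings, the lowest values being 1.70 and 1.55. Prrt1, a relative of Syndig1, followed at 0.67. At the lower end were Cnih3, a cornichon gene, at -0.59, Gsg1l at -0.49 and Shisa9 at -0.13, the last of which was positive under each other scaling. The skeletal muscle gamma subunit gene Cacng1, which is no TARP, was below the floor on both arrays.

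Genes for assembly of the receptor in the endoplasmic reticulum differed little, apart from Porcn. Porcn, an acyltransferase gene whose product also associates with AMPA receptors, read 7.98 in TRAP and 9.23 in unbound, a difference of -1.25, or -0.92 with the array medians subtracted. Frrs1l and Cpt1c, parts of early assembly complexes, differed by -0.23 and -0.38, the phosphatase gene Sacm1l by 0.31 and the lipase gene Abhd6 by -0.02. The signs of Frrs1l, Cpt1c and Abhd6 turned under at least 1 other scaling.

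Scaffold and trafficking genes lay on both sides of 0: of 10 above the floor, 1 was past 2-fold in TRAP and 3 in unbound, with a median of -0.10. With so short a list, neither share is far from the 8.11% and 18.6% of all genes. Grip2 and Grip1 encode the PDZ proteins that bind the tails of GluA2 and GluA3. Grip2 read 8.01 in TRAP and 6.62 in unbound, a difference of 1.39 with the unbound value below the floor. Grip1 read 9.48 and 8.70, a difference of 0.79. Dlg2, a synaptic scaffold gene of the PSD-95 family, differed by 0.38. Nsf, whose product also binds GluA2, went the other way at -0.22, or 0.11 with the array medians subtracted.

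The 3 lowest genes of the scaffold and trafficking list were Dlg1, Epb41l1 and Akap5. Dlg1, encoding the scaffold SAP97 that binds the tail of GluA1, read 7.40 in TRAP and 9.52 in unbound, a difference of -2.12 or 4.35-fold. Epb41l1, encoding protein 4.1N, which links GluA1 to actin, read 9.44 and 10.99, which is -1.55. Akap5, an anchoring protein gene that places kinases at GluA1 through SAP97, read 8.71 and 9.78, which is -1.07. Dlg1 and Epb41l1 stayed at least 2-fold higher in unbound under the other scalings, while Akap5 was -0.74 with the array medians subtracted and -0.93 after quantile normalization. The binding partners are background, and no difference between the genes that bind one subunit or another was tested.

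Of the remaining lists, both neuronal pentraxin genes with a value were higher in TRAP, as were 44.1% of all genes above the floor. With 2 genes this count says little. Neuronal pentraxins are secreted and cluster AMPA receptors. Nptx2 read 7.35 in TRAP and 6.29 in unbound, a difference of 1.05 with the unbound value below the floor, and Nptx1 differed by 0.27. The editing enzyme genes Adarb1, which acts on the pore site of Gria2, and Adar differed by 0.32 and -0.09, the latter positive with the array medians subtracted and after quantile normalization. Grid1, encoding a delta receptor related to the AMPA receptor subunits, read 6.95 in TRAP, below the floor, and 7.35 in unbound.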

How the data were processed

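One array of ribosome-bound (TRAP) and one of unbound RNA were compared. The authors deposited 1 log2 value per probe set and array, for which the submitters' processing notes name Affymetrix Power Tools; its version, the log base and how background and arrays were adjusted were not given in the sources used here. As natural logs the maximum would be a signal of 847885, above the 65535 of a 16-bit scanner, so log2 was assumed.

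Of 22097 probe sets, 20999 name 1 gene in the platform annotation, 91 name several (left out) and 1007 have no name here. Entrez identifiers matched 20959 to RefSeq. Probe sets were averaged per gene. Genes had to exceed the floor, the median of all values, on at least 1 array. Differences are TRAP minus unbound, and a size of 2-fold stands in for a test. Sums of signal are of 2 raised to the log2 values. The 34 pathway genes exclude the members.

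Text names all members, genes of lists with up to 5 genes, otherwise the 3 largest differences per direction. For markers it names up to 3 per direction, plus Pcp2 and Rpl10a. Pcp4, Nsf, Mycn, Sfrp1, Fabp7 and markers below the floor were chosen after values were seen. Members and lists were chosen with earlier results of these data known. Some list genes were not analysed here. The number of arrays limits the precision. Scripts (Python 3.11.15, statsmodels 0.14.6) were tested on simulated data.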

Additional observations from a re-analysis of the deposited data

How the results depend on the processing

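With 1 array per fraction no error is known, and the TRAP array had the lower median (6.92 against 7.25). Other scalings moved the median difference of all genes above the floor from -0.13 to 0.25 (array medians subtracted), 0.08 (quantile normalization) and -0.04 (loess trend removed, span 0.3). No paired analysis was possible because each group has 1 array.

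With the array medians subtracted, the differences were -0.56 for Gria1, -0.74 for Gria2, -0.44 for Gria3, -2.71 for Gria4, 0.76 for Cacng2, -1.19 for Cacng3, -0.24 for Cacng4, -0.073 for Cacng8, -0.20 for Cacng5 and -0.11 for Cacng7; the median of the members was -0.34 and that of the other pathway genes 0.31, with 2 of those at least 2-fold higher in unbound in place of 4. Quantile normalization gave -0.81 for Gria2, -0.55 for Gria3, -2.85 for Gria4, -1.21 for Cacng3, -0.037 for Cacng8 and -0.17 for Cacng5, and 0.17 for the median of the other pathway genes. Removing the loess trend gave -2.86 for Gria4, -1.32 for Cacng3, -0.20 for Cacng8 and -0.32 for Cacng5. Members higher in unbound numbered 5 at 1.5-fold and 1 at 4-fold. Of the other pathway genes, 1 was 4-fold higher in unbound and 0 in TRAP, and with the floor at the 75th percentile 2 were at least 2-fold higher in TRAP. Using the brightest probe set moved Cacng2 by 0.11 and no other member, and using no floor or a floor set on the mean level left the member counts as they were. With the floor at the 75th percentile 2 members were past 2-fold in unbound in place of 3, because Cacng3 no longer passed the floor.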
